A study of Ambystoma mexicanum with 8 samples.

Results

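The genes described here are those of the mTOR and PI3K pathway in cells of axolotl limbs. A gene model of the deposited matrix was taken as a member when its symbol was one of 31 listed. Of these symbols 28 were found, on 33 of the 61014 gene models. RICTOR and DEPTOR had 3 models each, AKT1S1 had 2, and 25 symbols had 1. No model carried the symbol PDPK1, RRAGB or LAMTOR4, so these 3 were not analysed here.

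The kinase mTOR sits in a pair of complexes. Complex 1, built on RPTOR, is recruited to the lysosome surface by the Rag GTPases and their anchor, the Ragulator (LAMTOR proteins), when amino acids are plentiful, and is switched on there by the GTPase RHEB. Complex 2, built on RICTOR, phosphorylates AKT, the kinase that growth factors reach through PI3K and that restrains the TSC1-TSC2 brake on RHEB. Active complex 1 promotes translation through the S6 kinases and by releasing EIF4E from its binding proteins, and it holds back autophagy through ULK1. In axolotls the pathway is known for its part in translational control after wounding and amputation.

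The study dissociated limbs of wild-type axolotls (Ambystoma mexicanum), stained the cells for DNA content and viability, sorted live 2C cells and made 10x 3′ v3.1 libraries. The 2 groups were contra limbs, which the series text calls systemically activated and which were taken 14 days after amputation, and intact limbs, which it calls homeostatic. The comparison asks how limbs in the activated state differ from homeostatic ones. Contra libraries 1, 2, 4 and 5 and intact libraries 1, 2 and 4 were analysed; intact 5 was not analysed here. Age is not stated, nor whether each library came from a separate animal, so p-values measure the spread between these libraries, which may be technical. The labels' protocol calls the 2C fraction non-dividing, whereas the series text calls it dividing.

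After 439 likely doublets were removed, 34574 cells remained, from 4333 to 5675 per library, with 96526090 to 131397510 UMIs per library. Pairs of libraries shared 1 to 9 cell barcodes. Cells were put into classes by how many distinct marker genes of a type they held, none of them a pathway member, and 91.2% fell into exactly 1 class. Of these, 9052 cells were T-cell-like, 1331 B-cell-like, 341 macrophage-like, 7256 epidermal-like and 13396 erythroid-like, with 29 to 77 macrophage-like cells per library. Fibroblast-like (18), muscle-like (21), mast-cell-like (35) and neutrophil-like (73) cells were too few to test. Haemoglobin took 25.1% to 54.6% of a library's UMIs, so it was left out of every sum, and all levels below are CPM, the counts scaled to a common total, of a class's other UMIs. A class level is a share of RNA and not an amount per cell, and free RNA in the droplets was not subtracted.

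Levels were first compared between classes within the same libraries, each class against the mean of the other 4, for 27 member models among 20127 gene models tested. The other 6 member models (RPS6KB2, RRAGD, TSC1, 1 of RICTOR and 2 of DEPTOR) had 55 to 232 UMIs each. They were too low to be tested in these contrasts. Macrophage-like cells stood out for the lysosomal anchor genes, erythroid-like cells for low PIK3R1 and LAMTOR3 and high EIF4EBP1, and epidermal-like cells for DEPTOR. At an adjusted p under 0.05 (edgeR quasi-likelihood test, Benjamini-Hochberg), 6 members were higher and 5 lower in T-cell-like cells, where 30.9% and 22.5% of all genes were. In B-cell-like cells 5 were higher and 11 lower (25.1% and 26.5% of all genes), and in macrophage-like cells 8 and 7 (19.3% and 23.0%). Epidermal-like cells had 13 higher and 6 lower (37.4% and 34.7%), and erythroid-like cells 13 and 9 (34.0% and 30.8%). The median log2 fold change of the members was 0.03 in T-cell-like, -0.34 in B-cell-like, -0.29 in macrophage-like, 0.12 in epidermal-like and 0.23 in erythroid-like cells, beside 0.05, -0.03, -0.22, -0.02 and 0.02 over all genes. Of the 27 members, 25 were called in at least 1 class, and RPTOR and the RICTOR model AMEX60DD301041942.1 in none.

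**Figure D1:**
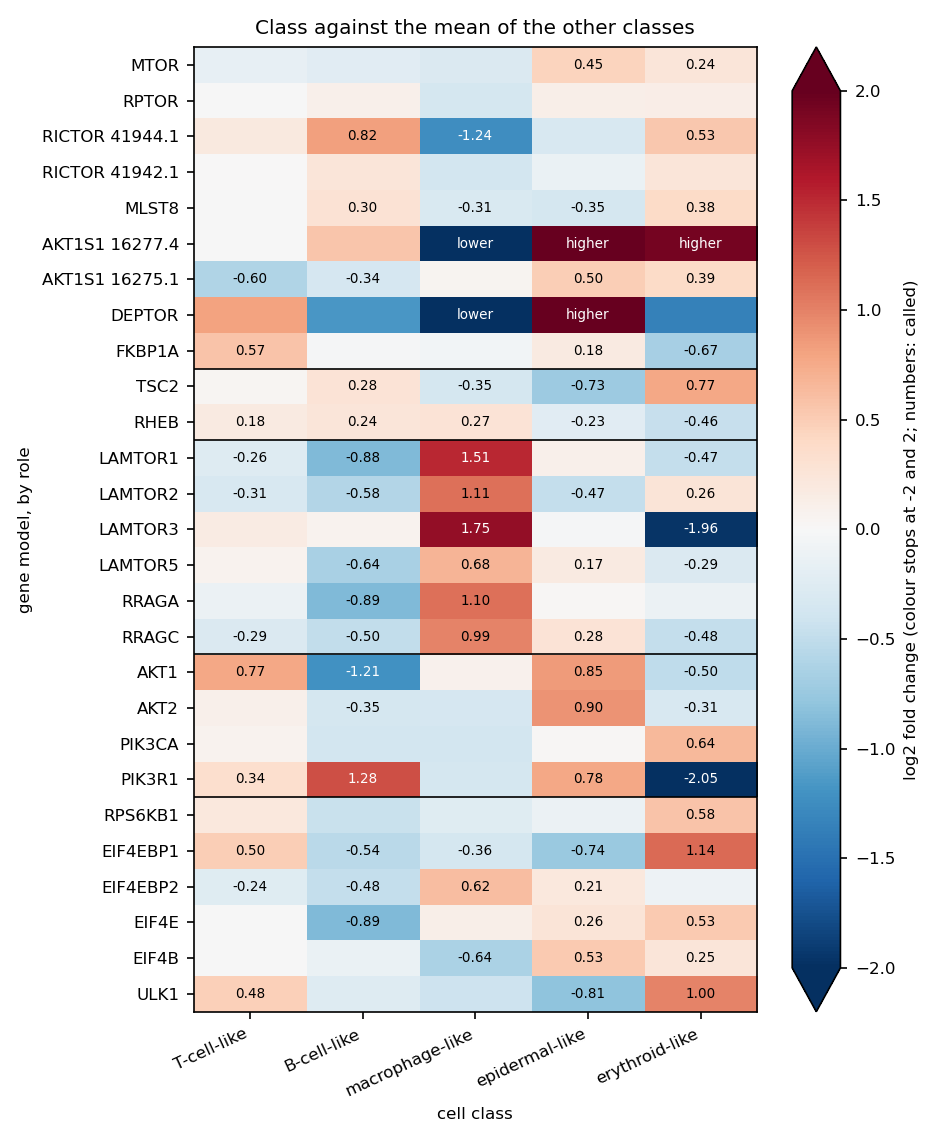
Log2 fold change of 27 member gene models (rows, grouped by role) in each of 5 cell classes against the mean of the other classes, over 7 libraries. Colour gives the size, and a number or a word marks a call at an adjusted p under 0.05. Words replace numbers where a class held at most 3 UMIs of the model. The block of Ragulator and Rag genes is red in macrophage-like cells, from 0.68 for LAMTOR5 to 1.75 for LAMTOR3.

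All 6 tested Ragulator and Rag genes were higher in macrophage-like cells. LAMTOR1 (AMEX60DD201049868.1) anchors the Ragulator in the lysosome membrane. Its level in macrophage-like cells ran from 59.0 to 83.7 CPM with a median of 70.1, against medians of 25.3 CPM in T-cell-like, 25.1 in epidermal-like, 21.4 in erythroid-like and 17.3 in B-cell-like cells. The lowest macrophage-like library lay above every library of the other classes, the highest of which was 29.0 CPM. The log2 fold change of LAMTOR1 was 1.51 ± 0.08 (SE), with an edgeR adjusted p of 1.18e-18. The next classes were close together, and T-cell-like exceeded epidermal-like cells in 4 of 7 libraries.

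LAMTOR3 (AMEX60DD102044277.7), a scaffold subunit of the Ragulator, spanned the widest range of this group. It ran from 53.4 to 82.6 CPM (median 73.0) in macrophage-like cells, from 26.6 to 31.1 (28.3) in T-cell-like, from 16.4 to 30.2 (27.2) in B-cell-like, from 17.1 to 24.6 (20.5) in epidermal-like and from 6.74 to 9.59 CPM (8.59) in erythroid-like cells. Neither the macrophage-like nor the erythroid-like range touched another class, while the B-cell-like range overlapped those of T-cell-like and epidermal-like cells. LAMTOR3 was higher in macrophage-like cells by 1.75 ± 0.10 (log2, SE; edgeR adjusted p 1.15e-18). In erythroid-like cells its log2 fold change was -1.96 ± 0.09 (SE; edgeR adjusted p 4.29e-21).

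LAMTOR2 (AMEX60DD201016810.1), another Ragulator subunit, had 95.8 to 201 CPM (median 149.7) in macrophage-like cells and 79.6 to 93.1 CPM (86.2) in erythroid-like cells, above the T-cell-like range of 59.7 to 70.2 CPM. Its log2 fold change was 1.11 ± 0.09 (SE) in macrophage-like and 0.26 ± 0.08 (SE) in erythroid-like cells, so LAMTOR2 and LAMTOR3 were called in opposite directions in erythroid-like cells. LAMTOR5 (AMEX60DD201009249.1) ran from 121 to 175 CPM in macrophage-like cells, all above the highest value elsewhere, 108 CPM in T-cell-like cells. RRAGA and RRAGC, which form the GTPase pair that binds complex 1, were at 37.3 ± 8.98 and 15.6 ± 3.49 CPM (SD, n = 7) in macrophage-like cells. RRAGA was highest there in 7 of 7 libraries and RRAGC in 6 of 7. In B-cell-like cells 5 of these 6 genes were lower, and LAMTOR3 did not pass the test (0.08 ± 0.10, log2, SE).

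Among the genes of the mTOR complexes, MTOR (AMEX60DD301051133.1), the kinase itself, averaged 19.2 ± 4.64 CPM in erythroid-like, 17.7 ± 2.69 in epidermal-like, 15.6 ± 2.74 in macrophage-like, 15.5 ± 1.62 in T-cell-like and 14.5 ± 2.73 CPM in B-cell-like cells (SD, n = 7 each), and all 5 ranges overlapped. It was higher in epidermal-like (0.45 ± 0.08, log2, SE) and erythroid-like cells (0.24 ± 0.08). Without TMM factors, on plain CPM with 1 added before the log2, these values were 0.13 and 0.25. MLST8, a subunit of both complexes, was higher in erythroid-like (0.38 ± 0.07) and B-cell-like cells (0.30 ± 0.08) and lower in epidermal-like (-0.35 ± 0.07) and macrophage-like cells (-0.31 ± 0.09). RPTOR class means lay between 4.93 and 6.48 CPM.

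DEPTOR (AMEX60DD201026984.2), which binds mTOR and dampens both complexes in mammals, was highest in epidermal-like cells. In epidermal-like cells it had 13.2, 10.3, 9.78 and 11.5 CPM in contra 1, 2, 4 and 5, against 7.63, 7.99 and 9.17 CPM in intact 1, 2 and 4. In T-cell-like cells DEPTOR ran from 0.936 to 1.83 CPM, in B-cell-like cells from 0 to 3.28 and in erythroid-like cells from 0.174 to 0.772 CPM. Macrophage-like cells held 1 UMI of it in all, in contra 1. Every epidermal-like library thus lay above every library of any other class (edgeR adjusted p 4.00e-22), and the fold is not given because of the near-empty class. For comparison, the epidermal markers summed to 97.7 to 453 CPM in T-cell-like and 21311 to 28954 CPM in epidermal-like cells.

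FKBP1A (AMEX60DDU001019681.1) encodes the small protein through which rapamycin binds mTOR. It ran from 508 to 593 CPM (median 533) in T-cell-like cells and from 243 to 295 CPM (256) in erythroid-like cells, with the other 3 classes between these ranges and no overlap with either. The fitted log2 fold change of FKBP1A was 0.57 ± 0.06 (SE) in T-cell-like and -0.67 ± 0.07 in erythroid-like cells. AKT1S1, a substrate and inhibitor of complex 1 also called PRAS40, was represented mainly by the model AMEX60DD201016275.1. That model was higher in epidermal-like (0.50 ± 0.09) and erythroid-like cells (0.39 ± 0.09) and lower in T-cell-like (-0.60 ± 0.09) and B-cell-like cells (-0.34 ± 0.12).

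TSC2 (AMEX60DD301020846.3), the GTPase-activating subunit of the brake on RHEB, was higher in erythroid-like (0.77 ± 0.09, log2, SE) and B-cell-like cells (0.28 ± 0.09) and lower in epidermal-like (-0.73 ± 0.09) and macrophage-like cells (-0.35 ± 0.11). It ran from 151 to 187 CPM in erythroid-like cells and from 37.2 to 89.9 CPM in epidermal-like cells, with no overlap. In T-cell-like cells it had 91.3, 164, 109 and 131 CPM in contra 1, 2, 4 and 5, against 95.3, 146 and 100.3 CPM in intact 1, 2 and 4. The number 1 libraries were lowest and the number 2 libraries highest in T-cell-like cells, in both groups. RHEB, the GTPase it acts on, was lower in erythroid-like (-0.46 ± 0.06) and epidermal-like cells (-0.23 ± 0.06) and higher in macrophage-like (0.27 ± 0.07), B-cell-like (0.24 ± 0.07) and T-cell-like cells (0.18 ± 0.06). TSC1 had 79 UMIs over all 5 classes and was not tested.

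**Figure D2:**
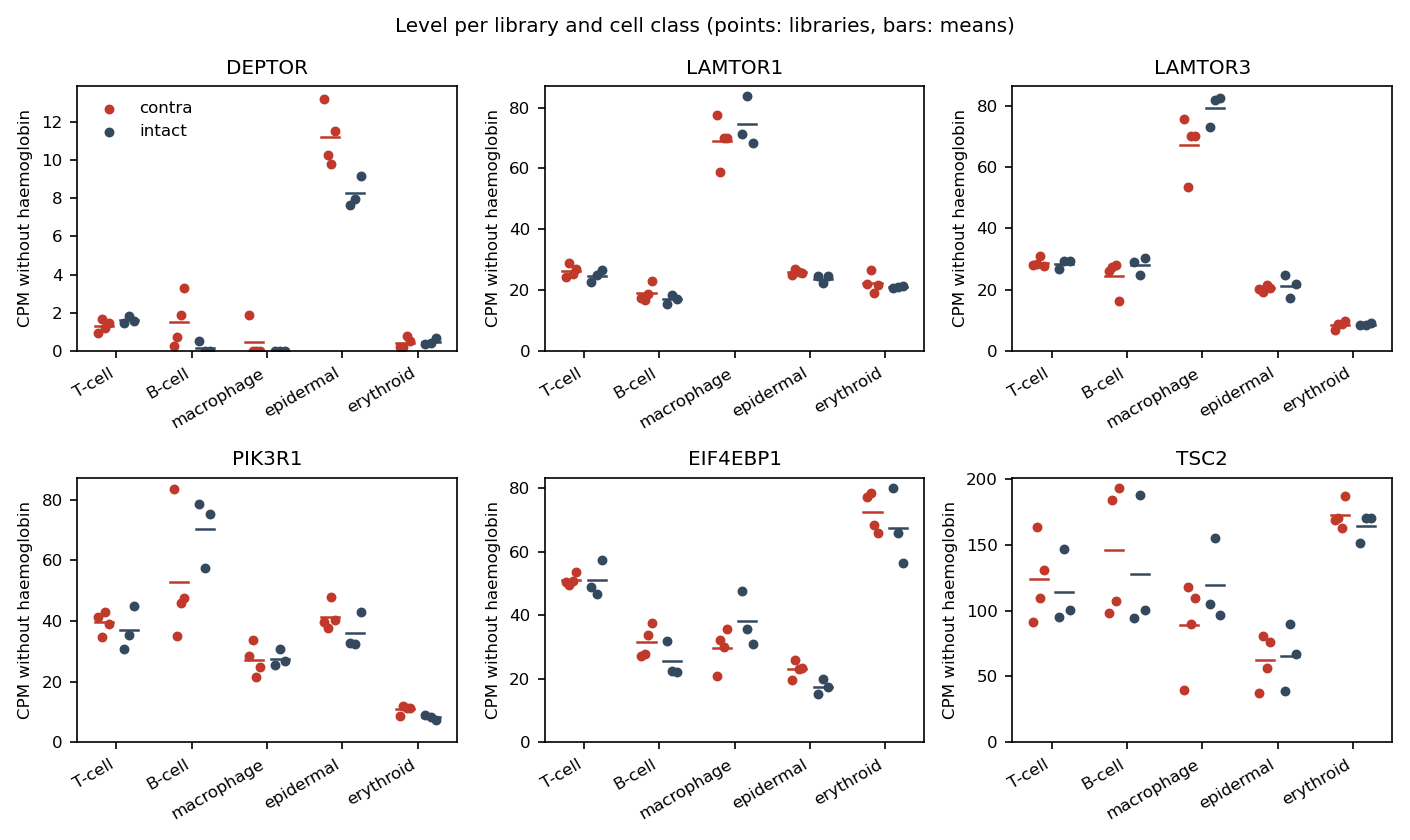
Level (CPM of UMIs without haemoglobin) of 6 member genes in each class, with 1 point per library, contra (red) left of intact (dark) and bars for group means. LAMTOR1 and LAMTOR3 are highest in macrophage-like cells and DEPTOR in epidermal-like cells. In epidermal-like cells the 4 contra libraries of DEPTOR, at 9.78 to 13.2 CPM, lie above the 3 intact ones at 7.63 to 9.17 CPM.

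Among the PI3K and AKT genes, PIK3R1 (AMEX60DD301042280.5), the main regulatory subunit of class I PI3K, differed most. It ran from 7.46 to 12.01 CPM (median 9.01) in erythroid-like cells, below every library of the other classes, the lowest of which was 21.5 CPM in macrophage-like cells. B-cell-like cells had 83.5, 34.9, 46.0 and 47.5 CPM in contra 1, 2, 4 and 5, against 78.7, 57.5 and 75.1 CPM in intact 1, 2 and 4. PIK3R1 had a log2 fold change of -2.05 ± 0.13 (SE; edgeR adjusted p 1.23e-16) in erythroid-like cells and of 1.28 ± 0.12 (SE; edgeR adjusted p 1.68e-11) in B-cell-like cells. The catalytic subunit gene PIK3CA was higher in erythroid-like cells (0.64 ± 0.14), the class in which PIK3R1 was lowest, and was called in no other class.

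The AKT genes also differed by class. AKT1 was higher in T-cell-like (0.77 ± 0.11, log2, SE) and epidermal-like cells (0.85 ± 0.12) and lower in B-cell-like (-1.21 ± 0.18) and erythroid-like cells (-0.50 ± 0.12). It averaged 7.68 ± 2.54 CPM in B-cell-like cells and was lowest there in 6 of 7 libraries. AKT2 was highest in epidermal-like cells in 7 of 7 libraries, at 17.6 ± 2.46 CPM (SD, n = 7) and 0.90 ± 0.09 above the other classes on the log2 scale.

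Of the genes downstream of complex 1, EIF4EBP1 (AMEX60DD103002562.1), which holds EIF4E inactive until it is phosphorylated, had the widest range. It ran from 56.4 to 80.1 CPM (median 68.3) in erythroid-like, from 46.7 to 57.4 (50.4) in T-cell-like, from 20.8 to 47.5 (32.3) in macrophage-like, from 22.0 to 37.7 (27.9) in B-cell-like and from 15.3 to 25.8 CPM (19.8) in epidermal-like cells. Erythroid-like cells were above T-cell-like cells in 6 of 7 libraries, and epidermal-like cells were lowest in 7 of 7. The log2 fold change of EIF4EBP1 was 1.14 ± 0.08 (SE; edgeR adjusted p 5.73e-15) in erythroid-like and -0.74 ± 0.10 (SE; edgeR adjusted p 1.08e-08) in epidermal-like cells. Its paralog EIF4EBP2 followed another order: it was highest in macrophage-like cells in 7 of 7 libraries, at 84.0 ± 12.8 CPM, against 51.0 ± 4.82 CPM in erythroid-like cells (SD, n = 7 each).

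ULK1, the kinase that starts autophagy, was at 13.0 ± 1.80 CPM in erythroid-like cells, 10.1 ± 1.07 in T-cell-like and 3.93 ± 0.433 CPM in epidermal-like cells (SD, n = 7 each). EIF4E itself was higher in erythroid-like cells (0.53 ± 0.08, log2, SE) and lower in B-cell-like cells (-0.89 ± 0.11), where it was lowest in 7 of 7 libraries. EIF4B (AMEX60DD102029803.8), a helicase cofactor and S6 kinase substrate, was lowest in macrophage-like cells in 7 of 7 libraries, from 112 to 185 CPM (median 133), against 153 to 239 CPM (207) in erythroid-like cells. The S6 kinase gene RPS6KB1 was higher in erythroid-like cells (0.58 ± 0.13) and called in no other class. Markers of cycling cells also differed by class. They summed to 298 to 1153 CPM in erythroid-like and 270 to 651 CPM in T-cell-like cells. The sums were 101 to 243 CPM in epidermal-like, 100 to 252 in B-cell-like and 57 to 190 CPM in macrophage-like cells. Their part in the class differences of EIF4E, ULK1, RPS6KB1 and MTOR was not tested.

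The epidermal-like calls depend in part on scaling. The all-gene median of that contrast was -0.02 with TMM factors and -0.23 on plain CPM, and 5 of the 19 called members (EIF4E, EIF4EBP2, FKBP1A, LAMTOR5 and RRAGC, all called higher) turned below 0 on plain CPM. No called member of the other 4 classes turned. Both scales leave out haemoglobin, which took a median of 78.1% of the UMIs of an erythroid-like cell. Class levels as a share of all UMIs were not compared, so the erythroid-like calls hold for the RNA other than haemoglobin. For members, plain CPM had 1 added before the log2, which by itself shrinks values at low counts. The other members called higher in epidermal-like cells had smaller values on plain CPM. Examples are AKT1S1 (AMEX60DD201016275.1) at 0.21, EIF4B at 0.22 and AKT2 at 0.58, against 0.50, 0.53 and 0.90 with TMM factors. The 6 called lower there moved further down, such as EIF4EBP1 to -1.04 from -0.74. In macrophage-like cells the all-gene median was -0.22, so values near that size are not set apart from the bulk of genes. MLST8 (-0.31) and TSC2 (-0.35) were close to it there. On plain CPM they were at -0.18 and -0.23, beside an all-gene median of -0.18.

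A wider list of 80 found pathway symbols, on 115 gene models, gave 96 tested models in the same contrasts. Of these, 29 were higher and 30 lower in T-cell-like cells, where 30.9% and 22.5% of all genes were. The counts were 22 and 34 in B-cell-like (25.1% and 26.5% of all genes), 29 and 31 in macrophage-like (19.3% and 23.0%), 39 and 33 in epidermal-like (37.4% and 34.7%) and 40 and 32 in erythroid-like cells (34.0% and 30.8%). The class I PI3K catalytic gene PIK3CG averaged 71.6 ± 7.32 CPM in T-cell-like and 70.6 ± 4.55 in B-cell-like cells, against 0.710 ± 0.231 CPM in epidermal-like cells (SD, n = 7 each). PIK3CD, another catalytic gene of the class, was at 151 ± 10.5 CPM in B-cell-like and 5.997 ± 1.39 CPM in erythroid-like cells. The regulatory gene PIK3R2 averaged 181 ± 21.5 CPM in epidermal-like cells, 4.00 ± 0.08 (log2, SE) above the other classes. SGK1, an AGC kinase activated through complex 2, reached 505 ± 102 CPM in erythroid-like cells, against 2.30 ± 0.781 in T-cell-like cells. MITF, a lysosomal and autophagy gene regulator, was at 48.7 ± 11.6 CPM in macrophage-like cells and 6.03 ± 0.17 (log2, SE) above the other classes. INPP5D, the phosphatase SHIP1, was also higher there (4.19 ± 0.11). The binding protein gene EIF4EBP3 was higher in epidermal-like cells (2.32 ± 0.08) and SESN3, a member of the stress-induced sestrin family, in erythroid-like cells (3.03 ± 0.11).

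Contra was then compared with intact within each class, for 27, 29, 28, 18 and 18 member models in T-cell-like, epidermal-like, erythroid-like, B-cell-like and macrophage-like cells. No member passed an adjusted p of 0.05 in any class by edgeR, and 0% of all genes did. At an unadjusted p under 0.05 there were 0, 4, 0, 0 and 2 members in that order of classes, where 1.73%, 8.23%, 4.17%, 1.57% and 3.83% of all genes lay. DESeq2 called 0 members in each class as well. In simulated data the contra against intact fits recovered 26.9% to 49.3% of 2-fold changes by class, so changes of that size can go uncalled. The median log2 fold change of the members was -0.02, -0.04, -0.04, 0.02 and -0.09 in the same order, beside 0.00, -0.01, 0.00, -0.01 and 0.01 over all genes. The 95% interval lay within 1 log2 unit of 0 for 26 of 27 members in T-cell-like, 26 of 29 in epidermal-like, 26 of 28 in erythroid-like, 17 of 18 in B-cell-like and 16 of 18 in macrophage-like cells.

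**Figure D3:**
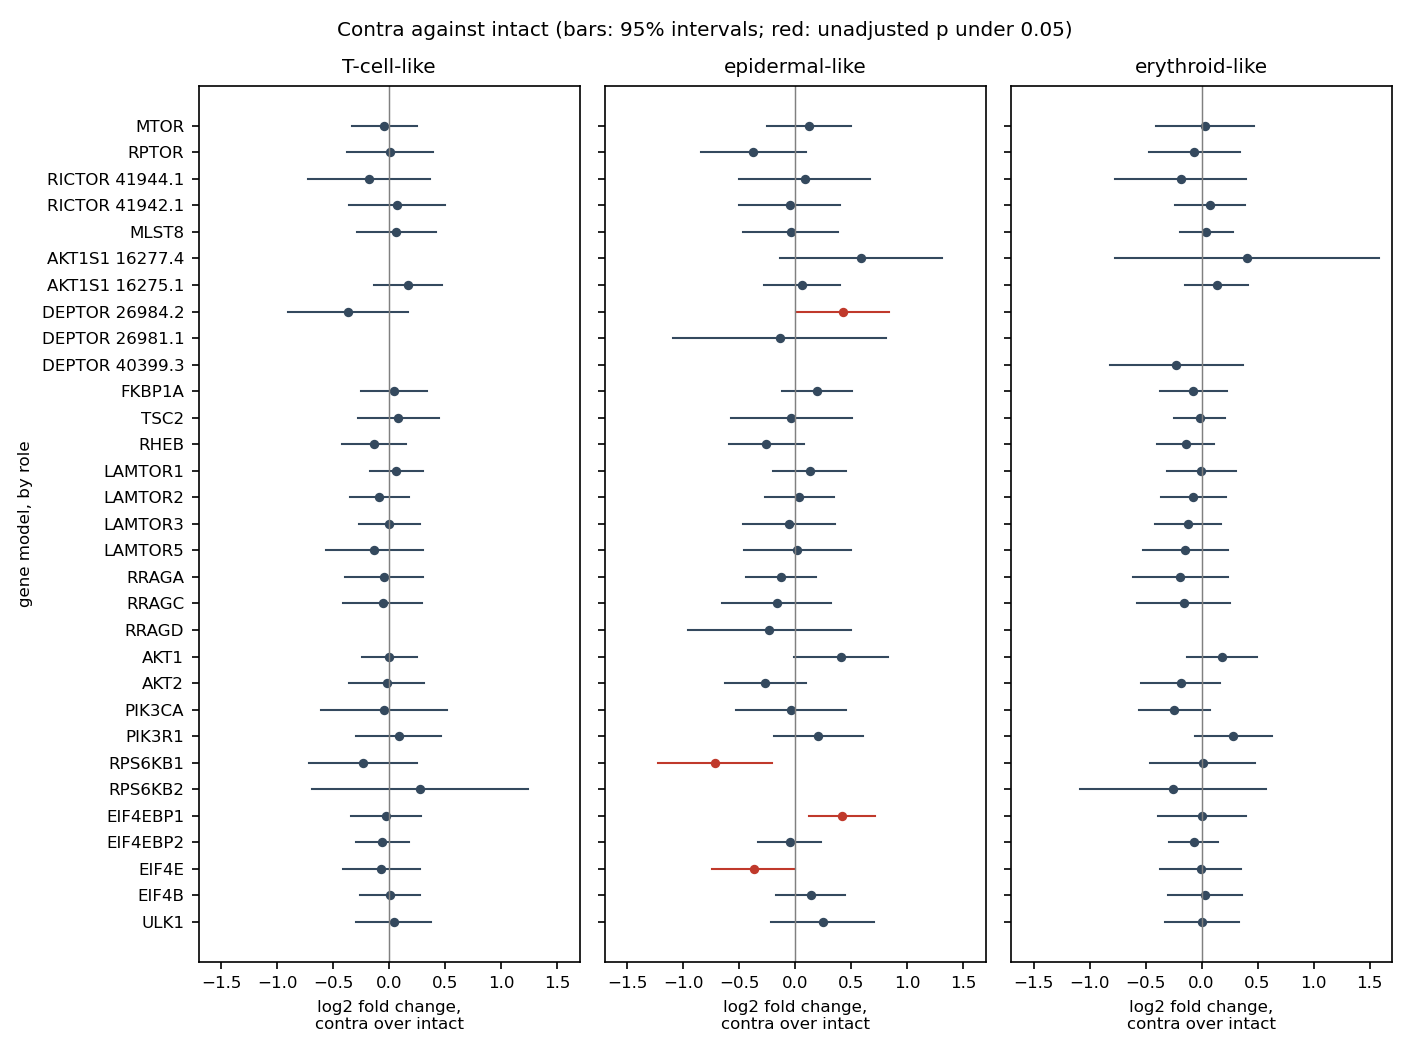
Log2 fold change of each tested member gene model, contra over intact, in T-cell-like, epidermal-like and erythroid-like cells, with 95% intervals from the edgeR fit (4 contra and 3 intact libraries). Red marks an unadjusted p under 0.05, and no member had an adjusted p under 0.05. Red points occur in epidermal-like cells, for RPS6KB1 (-0.72), EIF4EBP1 (0.42), DEPTOR (0.42) and EIF4E (-0.37).

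In epidermal-like cells the 4 members of unadjusted p under 0.05, in the fit without a block, were RPS6KB1, EIF4EBP1, DEPTOR and EIF4E. The class held 267, 927, 1559 and 2635 cells in contra 1, 2, 4 and 5, against 209, 162 and 1497 in intact 1, 2 and 4. RPS6KB1 (AMEX60DD103054651.2) had 5.73, 3.72, 5.16 and 6.36 CPM in contra 1, 2, 4 and 5, against 9.71, 8.75 and 7.78 CPM in intact 1, 2 and 4. Every contra library lay below every intact library. The log2 fold change of RPS6KB1 was -0.72 ± 0.23 (SE), with an unadjusted p of 0.0102 and an edgeR adjusted p of 0.525. EIF4EBP1 had 19.8, 25.8, 23.1 and 23.3 CPM in contra 1, 2, 4 and 5, against 15.3, 19.8 and 17.3 CPM in intact 1, 2 and 4. Contra 1 and intact 2 were level, and on the TMM scale the groups did not overlap, with a log2 fold change of 0.42 ± 0.13 (SE; edgeR adjusted p 0.524). DEPTOR, whose values are given above, was at 0.42 ± 0.19 (SE; edgeR adjusted p 0.603), again with no overlap.

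EIF4E had 39.3, 34.5, 31.4 and 44.0 CPM in contra 1, 2, 4 and 5, against 51.5, 44.3 and 49.3 CPM in intact 1, 2 and 4 of the epidermal-like class. Contra 5, the highest contra library, lay just below intact 2, the lowest intact one, and on the TMM scale the groups overlapped. The log2 fold change was -0.37 ± 0.17 (SE; edgeR adjusted p 0.606). In all, groups did not overlap for 4 of 29 members in epidermal-like cells, RPTOR being the fourth, where 9.25% of all genes did not. With the library number as a block, edgeR called 74 of 18401 genes in epidermal-like cells and still 0 members. There 10 of 27 members had an unadjusted p under 0.05, where 18.1% of all genes lay. Contra was lower for EIF4E (-0.42, log2), RPS6KB1 (-0.77), RPTOR (-0.52) and RHEB (-0.25). It was higher for EIF4EBP1 (0.45), AKT1 (0.50), FKBP1A (0.25), PIK3R1 (0.26), DEPTOR (0.42) and EIF4B (0.19). Contra 5 had no intact library of its number, so the blocked effect rests on 3 pairs. Under that block 1 member in T-cell-like (6.29% of all genes), 0 in erythroid-like (4.07%), 3 in B-cell-like (5.59%) and 0 in macrophage-like cells (3.9%) had an unadjusted p under 0.05. The smallest adjusted p of a member was 0.0999 by edgeR, for EIF4E in epidermal-like cells at -0.42 ± 0.10 (SE).

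Other features of these epidermal-like libraries moved with the groups. The 14 epidermal markers that define the class summed to 25360 to 28954 CPM in contra and 21311 to 24472 CPM in intact libraries, with no overlap. The 11 cycling markers summed to 101 to 199 CPM in contra and 163 to 243 CPM in intact libraries, and the 11 fibroblast markers to 289 to 615 CPM in contra and 136 to 375 CPM in intact libraries, both with overlap. Their part in the differences was not tested, apart from a fit in cells with at most 1 cycling marker. There RPS6KB1 averaged 4.35 ± 0.744 CPM in contra and 8.81 ± 1.502 CPM in intact libraries (SD, n = 4 and 3; -0.93 ± 0.24, log2, SE; edgeR adjusted p 0.562). EIF4EBP1 averaged 23.7 ± 2.77 CPM in contra and 15.6 ± 3.46 CPM in intact libraries (0.62 ± 0.19; edgeR adjusted p 0.572). EIF4E was at -0.28 ± 0.20 (edgeR adjusted p 0.795) in those cells.

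In T-cell-like cells the members of smallest p were DEPTOR, AKT1S1 and RPS6KB1. DEPTOR had 0.936, 1.65, 1.18 and 1.46 CPM in contra 1, 2, 4 and 5, against 1.46, 1.83 and 1.55 CPM in intact 1, 2 and 4. AKT1S1 (AMEX60DD201016275.1) had 11.5, 18.0, 15.5 and 16.2 CPM in contra, against 10.7, 14.7 and 14.3 CPM in intact libraries. RPS6KB1 had 8.25, 7.30, 9.46 and 10.9 CPM in contra, against 10.3, 7.99 and 12.5 CPM in intact libraries. The CPM ranges of the groups overlapped for all 3, and the log2 fold changes were -0.37 ± 0.24, 0.17 ± 0.14 and -0.23 ± 0.22 (SE), each with an edgeR adjusted p of 1.00. Within the 3 pairs of libraries of the same number, contra was lower in 3 of 3 for DEPTOR and RPS6KB1 and higher in 3 of 3 for AKT1S1. It was also higher in 3 of 3 for FKBP1A and MLST8, and lower in 3 of 3 for LAMTOR5, MTOR and RRAGC. A shared direction in 3 pairs arises readily without a group difference, and its share over all genes was not computed. MTOR, for one, was at -0.04 ± 0.13 (log2, SE) in the fit without a block. With the number as a block the values of DEPTOR, AKT1S1 and RPS6KB1 were -0.40 ± 0.24, 0.16 ± 0.10 and -0.30 ± 0.11 (SE). RPS6KB1 there had an unadjusted p of 0.0294 and an edgeR adjusted p of 0.731. DEPTOR was the 1 member without overlap on the TMM scale, where 2.51% of all genes had none.

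In erythroid-like cells they were PIK3R1, PIK3CA and AKT1. PIK3R1 had 8.60, 12.01, 11.3 and 11.5 CPM in contra 1, 2, 4 and 5, against 9.01, 8.21 and 7.46 CPM in intact 1, 2 and 4. PIK3CA had 5.91, 6.01, 5.89 and 6.23 CPM in contra, against 5.66, 6.91 and 7.73 CPM in intact libraries. AKT1 had 10.2, 12.4, 10.5 and 13.3 CPM in contra, against 7.79, 11.0 and 9.90 CPM in intact libraries. Contra 1 lay within the intact range for PIK3R1, and the 3 log2 fold changes were 0.28 ± 0.15, -0.24 ± 0.14 and 0.18 ± 0.14 (SE), each with an edgeR adjusted p of 0.971. On the TMM scale, but not in CPM, groups did not overlap for 2 members (PIK3CA and LAMTOR3), where 4.2% of all genes had no overlap.

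Macrophage-like cells gave the widest single value, on few counts. AKT1 had 7.57, 36.5, 15.7 and 24.96 CPM in contra 1, 2, 4 and 5, from 4, 26, 11 and 21 UMIs, against 13.6, 8.17 and 10.0 CPM in intact 1, 2 and 4, from 8, 8 and 12 UMIs. Contra 1 was the lowest of the 7 libraries and contra 2 the highest, and the log2 fold change was 1.07 ± 0.43 (SE; edgeR adjusted p 0.999). The 6 Ragulator and Rag genes that were high in this class were not called between the groups. LAMTOR3 averaged 67.3 ± 9.66 CPM in contra and 79.1 ± 5.30 CPM in intact libraries (SD, n = 4 and 3; -0.24 ± 0.21, log2, SE). In B-cell-like cells groups overlapped for every tested member, and 2.67% of all genes had no overlap. The log2 fold changes there ran from -0.39 for PIK3R1 to 0.29 for RRAGA.

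The contra effect was compared between T-cell-like, epidermal-like and erythroid-like cells for 30 member models. It differed by an adjusted p under 0.05 for no member in any of the 3 pairs of classes, where edgeR called 1 of 25358 genes (0.00394%) between epidermal-like and erythroid-like cells and 0% in the other pairs. At an unadjusted p under 0.05 there was 1 member for epidermal-like minus erythroid-like (8.8% of all genes), 3 for T-cell-like minus epidermal-like (4.98%) and 1 for T-cell-like minus erythroid-like cells (2.99%). The smallest member p was that of RPS6KB1, whose effect in epidermal-like cells minus that in erythroid-like cells was -0.73 ± 0.22 (log2, SE; edgeR adjusted p 0.293). Of the wider list, 98, 98, 95, 65 and 56 models were tested in T-cell-like, epidermal-like, erythroid-like, B-cell-like and macrophage-like cells and 0 were called in each. At an unadjusted p under 0.05 there were 0, 7, 4, 1 and 1, where 1.73%, 8.23%, 4.17%, 1.57% and 3.83% of all genes lay. In epidermal-like cells the PI3K regulatory gene PIK3R3 averaged 16.3 ± 2.10 CPM in contra and 29.0 ± 12.3 CPM in intact libraries (-0.85 ± 0.23, log2, SE; edgeR adjusted p 0.498). The translation scaffold gene EIF4G1 averaged 79.7 ± 11.7 CPM in contra and 113 ± 7.77 CPM in intact libraries (-0.50 ± 0.15; edgeR adjusted p 0.499).

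Cells with at least 4 of the 11 cycling markers were compared with cells with at most 1, within the same libraries and class. They numbered 1752 against 5437 in T-cell-like, 1309 against 4033 in epidermal-like and 2308 against 9522 in erythroid-like cells. The word cycling stands here for marker RNA alone. All cells had been sorted as 2C, a fraction that the labels' protocol calls non-dividing and the series text dividing. Among the 25 members tested in each class, 9 were higher and 8 lower in cycling T-cell-like cells (29.3% and 25.4% of all genes), 2 and 4 in epidermal-like (13.3% and 12%) and 6 and 8 in erythroid-like cells (25.7% and 28.9%). EIF4E and RPS6KB1 were higher and ULK1 lower in cycling cells of all 3 classes. Cycling cells were deeper, with medians of 21223.5 against 10798 UMIs without haemoglobin in T-cell-like, 26542 against 19850 in epidermal-like and 10766.5 against 4959 in erythroid-like cells.

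**Figure D4:**
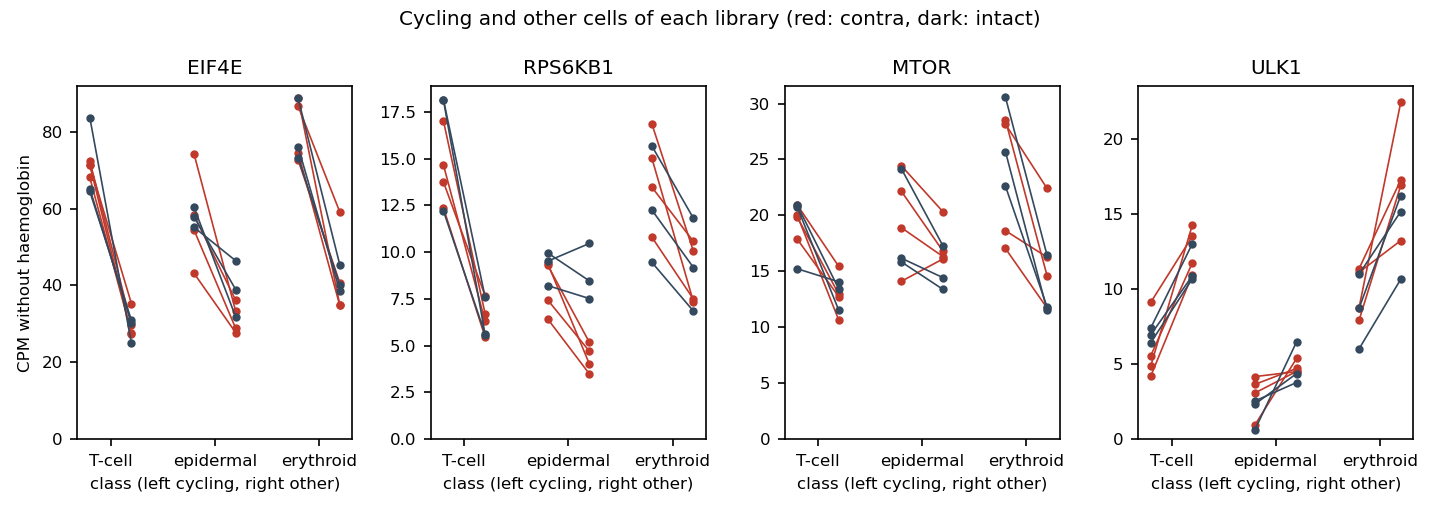
Level (CPM of UMIs without haemoglobin) of EIF4E, RPS6KB1, MTOR and ULK1 in cycling cells (left point) and other cells (right point) of each library, joined by a line, in 3 classes. Contra libraries are red and intact libraries dark. EIF4E falls to the right and ULK1 rises to the right in 7 of 7 libraries of each class.

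EIF4E (AMEX60DD301043903.2), the cap-binding protein, averaged 70.9 ± 6.43 CPM in cycling and 29.4 ± 3.28 CPM in other T-cell-like cells (SD, n = 7 each). The lowest cycling library, at 64.5 CPM, lay above the highest of the other cells, at 35.2 CPM. EIF4E was higher by 1.17 ± 0.07 (log2, SE; edgeR adjusted p 2.49e-12) in T-cell-like, 0.65 ± 0.08 (edgeR adjusted p 2.95e-05) in epidermal-like and 0.80 ± 0.07 (edgeR adjusted p 4.28e-10) in erythroid-like cells, in 7 of 7 libraries of each. In cells at or above the class's median depth the values were 1.14, 0.56 and 0.78, all called.

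RPS6KB1 averaged 15.2 ± 2.58 CPM in cycling and 6.42 ± 0.938 CPM in other T-cell-like cells (1.13 ± 0.10, log2, SE), and was higher in 7 of 7 libraries. In epidermal-like cells cycling cells had 9.403, 6.43, 7.45 and 9.31 CPM in contra 1, 2, 4 and 5, against 4.03, 3.49, 4.70 and 5.18 CPM in the other cells of those libraries. In intact 1, 2 and 4 cycling epidermal-like cells had 9.51, 9.96 and 8.21 CPM, against 10.5, 8.46 and 7.52 CPM in the other cells. The contra libraries were thus low among the non-cycling epidermal-like cells, and whether that gap differs between the groups was not tested. Some of these values rest on few cells. There were 29, 51 and 40 cycling cells in contra 1, intact 1 and intact 2, against 434 in contra 5 and 448 in intact 4. The other cells numbered 94 in intact 1 and 75 in intact 2. RPS6KB1 was higher in cycling cells by 0.48 ± 0.14 in epidermal-like and 0.39 ± 0.11 in erythroid-like cells, and among deeper cells these 2 calls were lost (0.39 and 0.32, adjusted p 0.111 and 0.106 by edgeR).

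MTOR was higher in cycling T-cell-like (19.4 ± 2.12 against 13.0 ± 1.59 CPM, SD, n = 7; 0.51 ± 0.09, log2, SE) and erythroid-like cells (24.5 ± 5.19 against 14.96 ± 3.91 CPM; 0.60 ± 0.10), in 7 of 7 libraries of each. In epidermal-like cells it was at 0.25 ± 0.09 with an edgeR adjusted p of 0.0521. ULK1 averaged 6.35 ± 1.66 CPM in cycling and 12.1 ± 1.44 CPM in other T-cell-like cells, 2.47 ± 1.31 and 4.81 ± 0.873 CPM in epidermal-like cells, and 9.26 ± 1.98 and 15.96 ± 3.67 CPM in erythroid-like cells. The log2 fold changes of ULK1 were -1.02 ± 0.12, -0.75 ± 0.20 and -0.94 ± 0.12 (SE), lower in 7 of 7 libraries of each class. Among deeper cells they were -0.82, -0.97 and -0.92, all called.

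Of the other members, 4 were called in opposite directions in cycling cells of different classes. The Ragulator genes LAMTOR2 and LAMTOR5 were higher in cycling T-cell-like cells (0.28 ± 0.05 and 0.15 ± 0.05, log2, SE) and lower in cycling erythroid-like cells (-0.28 ± 0.06 and -0.28 ± 0.07). RRAGC followed the same division, at 0.30 ± 0.11 in T-cell-like and -0.56 ± 0.16 in erythroid-like cells. EIF4EBP1 was also among the 4, with 0.14 ± 0.06 in T-cell-like cells and -0.56 ± 0.06 in erythroid-like cells, where cycling cells averaged 59.3 ± 8.96 CPM and other cells 78.8 ± 8.83 CPM (SD, n = 7 each). RHEB was lower in cycling erythroid-like cells (-0.50 ± 0.06), while in T-cell-like cells it was at 0.08 ± 0.05 and not called. Among deeper cells 0 of the 4 kept opposite calls. There LAMTOR2 was called in T-cell-like cells alone of these 2 classes (0.21 ± 0.06, against -0.16 ± 0.10 in erythroid-like) and EIF4EBP1 in erythroid-like cells alone (-0.28 ± 0.11, against 0.09 ± 0.07 in T-cell-like). LAMTOR5 (0.08 ± 0.06 in T-cell-like, -0.06 ± 0.10 in erythroid-like) and RRAGC (0.25 ± 0.15 and -0.50 ± 0.21) were called in neither. RHEB was at -0.51 ± 0.10 in deeper erythroid-like cells and was called. The difference between classes was not tested for these genes.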

How the data were processed

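The authors deposited 1 matrix of UMI counts, not normalized (whole numbers, per the file headers), with tables of gene names and of cells. Kallisto 0.48.0 and Seurat 4.2.0 are named in the submitters' processing notes. The genome build was not given in the sources used here, and no annotation was named. Deposited cells had at least 3003 UMIs. Gene symbols come from the deposited table alone, since 0 of the identifiers were found in RefSeq, and no position or sequence is given. Models that share a symbol may split reads.

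The members, gene lists and markers were chosen with earlier results of these data known. Doublets were scored with Scrublet (scanpy 1.11.5, expected rate 5%, score cutoff 0.25). Class cuts were set after the marker numbers were seen, and lay at troughs for T-cell-like, macrophage-like and epidermal-like cells. For B-cell-like cells the numbers fell steadily, and 670 of 1331 cells (50.3%) held exactly 4 markers. Neutrophil-like, mast-cell-like and muscle-like numbers also fell steadily. Among cells with at least 20% haemoglobin, erythroid marker numbers rose through the cut, and 216 of 13396 erythroid-like cells (1.61%) held exactly 2. T-cell-like cells held at least 4 of 9 markers, B-cell-like 4 of 6, macrophage-like 5 of 8 and epidermal-like 7 of 14. Erythroid-like cells held at least 2 of 6 and at least 20% haemoglobin. Deeper cells pass more easily, and 754 cells that passed for several classes were left out. Haemoglobin was 19 models, 2 of them named HB-AM and added after the files were seen.

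Counts were summed per library and class with at least 20 cells (528595 to 47510405 UMIs per sum) and tested two-sided with edgeR 4.0.16 (TMM, filterByExpr, quasi-likelihood, Benjamini-Hochberg at 0.05 over all genes). Class contrasts, differences between classes and the cycling comparison, which was added after the data were seen, had the library as a block. Libraries with the same number deviated together in T-cell-like (correlations 0.28 to 0.58) and epidermal-like cells (0.12 to 0.41). Contra and intact libraries of unlike number reached at most 0.07 and -0.01 there. The margin was small in erythroid-like cells, at 0.13 to 0.21 against at most 0.11. In B-cell-like cells (0.12 to 0.58) contra 4 with intact 1 reached 0.17, above contra 4 with intact 4. In macrophage-like cells the lowest was -0.03. For each contra library the values nearly cancelled over the intact libraries. In T-cell-like cells those of contra 1 were 0.42, -0.41 and 0.04 with intact 1, 2 and 4. Low values of unlike number are therefore not separate evidence. With that limit, libraries of the same number matched best in T-cell-like and epidermal-like cells and narrowly in erythroid-like cells. In B-cell-like and macrophage-like cells they did not clearly do so. The classes come from the same few libraries, so these values do not establish that the numbers mark pairs. Alternatives included DESeq2 1.42.0. The contra against intact fits were tested on simulated data. By class they recovered 1.49% to 4.48% of 1.5-fold, 26.9% to 49.3% of 2-fold and 77.3% to 97.0% of 4-fold changes. There were 6 to 10 false calls per class. Per-library values are given for the 3 members of smallest p in each of the 3 largest classes, the best-counted member of each role and the 6 of widest class range; those of EIF4E, of PIK3R1 in B-cell-like and AKT1 in macrophage-like cells, and the genes described in cycling cells, were chosen after their values were seen. Genes of the wider list were named from the 2 of smallest p in each direction.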

Additional observations from a re-analysis of the deposited data

Results flagged for a closer look

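Of 42 sets of 4 contra values checked, 3 had a library far from the others, and chance gives about 1 in 20. In epidermal-like cells, PIK3CA had 3.86 CPM in contra 2, where the other contra libraries had 3.54 to 3.58 CPM. FKBP1A had 417 CPM in contra 2 of the same class, where the others had 354 to 361 CPM. In T-cell-like cells, LAMTOR3 had 31.1 CPM in contra 4, where the others had 27.8 to 28.3 CPM.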

How the results depend on the processing

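No member was called between contra and intact in any class under any alternative. The numbers of all genes called, 0 in each class, moved without the filter on low counts to 200 (T-cell-like), 375 (epidermal-like), 450 (erythroid-like), 33 (B-cell-like) and 52 (macrophage-like). The replicate block called 1, 74 and 1 genes in T-cell-like, epidermal-like and erythroid-like cells, and DESeq2 62 in epidermal-like and 11 in erythroid-like cells. Leaving out 1 library gave 0 to 1 (T-cell-like), 0 to 14 (erythroid-like, most without contra 1), 0 to 4 (B-cell-like) and 0 to 3 genes (macrophage-like). RPS6KB1 in T-cell-like cells turned to 0.0111 (log2) in cells with at most 1 cycling marker; the cause was not tested. The other 235 alternatives kept their direction and side of the threshold. They covered the contra effects of the 3 members of smallest p in each of the 3 largest classes. They also covered a class contrast each of DEPTOR, LAMTOR3, PIK3R1, LAMTOR1, EIF4EBP1 and LAMTOR2. Class and cycling calls of other single members were not followed through the alternatives. Without the filter, class contrasts called 10 members higher and 1 lower in T-cell-like and 2 higher in B-cell-like cells. Leaving out contra 4 left 3 members lower in macrophage-like cells, and the range was 3 to 10. In deeper cells only, cycling calls were 5 lower in T-cell-like, 1 higher in epidermal-like and 5 lower in erythroid-like cells. Leaving out 1 library gave 5 to 8 lower in T-cell-like (fewest without contra 5 or intact 1), and 1 to 3 higher (fewest without contra 4 or contra 5) and 2 to 5 lower (fewest without contra 4 or intact 4) in epidermal-like cells. Macrophage-like cells numbered 29 to 77 per library. With 1 more marker required, B-cell-like cells had 5 members higher and 9 lower. The cycling fits and the fits in cells with few cycling markers were chosen after seeing the data.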

Other observations

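Models that share a symbol did not all have the same class levels or calls, and differences between models were not tested. The main DEPTOR model, AMEX60DD201026984.2, held 1665 of its UMIs in epidermal-like and 36 in erythroid-like cells. The DEPTOR model AMEX60DD301040399.3 held 88 of 102 UMIs in erythroid-like cells, at 0.835 to 1.06 CPM per library, and 6 in epidermal-like cells. That model was highest in erythroid-like cells in 7 of 7 libraries. It did not pass the filter of the class contrasts, so this difference was not tested. The smaller AKT1S1 model, AMEX60DD102016277.4, averaged 1.58 ± 0.572 CPM in epidermal-like and 0.879 ± 0.458 CPM in erythroid-like cells (SD, n = 7 each). It had 0 UMIs in macrophage-like cells, which allows up to 3 counts, or 0.541 CPM over that class. The RICTOR model AMEX60DD201041944.1 was higher in B-cell-like (0.82 ± 0.22, log2, SE) and erythroid-like cells (0.53 ± 0.16) and lower in macrophage-like cells. The RICTOR model AMEX60DD301041942.1 was called in none, but its values had the same signs there. They were 0.25 ± 0.16 in B-cell-like, 0.23 ± 0.11 in erythroid-like and -0.37 ± 0.23 in macrophage-like cells. The sequences of these models were not compared.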
